A study of Mus musculus with 15 samples.

Results

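Tumor-associated macrophages (TAMs) sorted from hepatomas that overexpressed miR-144 were compared with TAMs sorted from control hepatomas. The comparison used the 5 miR-144 samples and the 5 control samples, which are 10 of the 15 samples of the series. It covered every gene with a mean of at least 1 FPKM over these 10 samples, and 11350 of the 55335 genes listed met that rule. FPKM, the number of fragments scaled by transcript length and by all mapped fragments of a sample, is the unit of every level given here. All mice were of the C57BL/6 strain and had received Hepa1-6 hepatoma cells, an established mouse line, in the liver. The Hepa1-6 cells of both groups also carried a luciferase lentivirus, and they were infected with a lentivirus for miR-144 or with a control lentivirus. The labels describe the samples of both groups as untreated. The miRNA was overexpressed in the tumor cells, not in the macrophages, and the host kept its own liver macrophages and immune cells. The TAMs were sorted by flow cytometry, for which the study used the surface proteins CD11b and F4/80. Neither the age of the mice nor a link from sample to mouse was given, so p-values measure the spread between these samples, which may be technical. The study states for this sequencing a smaller number of replicates per group than the table has samples, so some samples of a group may share a source. The question was how the RNA of TAMs differs when the tumor cells around them overexpress miR-144.

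Macrophages change their gene programs with the signals around them. IL-4 and IL-13 act through the receptor chain IL-4Rα and the transcription factor STAT6 and turn on chitinase-like and resistin-like genes, a state called alternative activation or M2. Interferons and microbial products turn on antiviral genes, chemokines and cytokines, a state often called M1. TAMs of many tumors resemble alternatively activated cells, take up dead cells and lipid, and are known to restrain T cells.

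The miRNA that sets the groups apart is transcribed from mouse chromosome 11, where the hairpin gives a 3p and a 5p strand. Both mature sequences are shown from RefSeq (GRCm38.p6), with the seed (bases 2 to 8) in capitals, since the seed is the part of a miRNA that pairs with its targets. The 3p strand comes from 78073047 to 78073066 and the 5p strand from 78073010 to 78073032, both on the plus strand.
mmu-miR-144-3p: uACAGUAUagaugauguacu
mmu-miR-144-5p: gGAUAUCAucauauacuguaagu
The gene Mir144 was listed at 0 in all 10 samples, and so was its neighbor Mir451a. Neither value checks the labels, because the overexpressing cells were the tumor cells and mature miRNAs are not what this table measures.

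The sorted cells carried macrophage RNA. Of 12 macrophage markers, all 12 were tested, 11 were higher in miR-144 TAMs and 1, Cd68, was lower. Lyz2, the lysozyme of phagocytes, ranged over 6527 to 7411 FPKM in control and 12408 to 14257 in miR-144 TAMs. Adgre1, which encodes F4/80, ranged over 131 to 141 and 334 to 394 FPKM. Itgam, which encodes CD11b, has 2 identifiers in the table that share sequence, so their split is uncertain. Their sum ranged over 73.3 to 78.5 FPKM in control and 103 to 119 in miR-144 TAMs. Albumin (Alb), Apoa1, Ttr, Serpina1a, Apoc3, Fgb, Krt8 and Krt18 were listed at 0 in all 10 samples, which are 8 of 12 markers of hepatocytes or hepatoma cells. Of the others, H19 ranged over 0.663 to 1.59 FPKM in control and 0.526 to 1.25 in miR-144 TAMs. Afp ranged over 0.136 to 0.253 and 0.0753 to 0.232, while Apob reached at most 0.0353 and Hnf4a at most 0.00462. The T cell genes Cd3e, Cd3g and Trbc2 and the NK cell genes Ncr1, Gzma, Gzmb and Prf1 were also at 0 throughout. The summed level of 9 Kupffer cell markers was 23.6 to 32.3 FPKM in control and 42.5 to 70.0 in miR-144 TAMs. Of the 2 tested, 1 was higher, Cd5l, and 0 were lower in limma, while Clec4f was at 0 in all samples and Vsig4 averaged 0.118 and 0.376 FPKM. The summed level of 8 monocyte markers was 4067 to 5842 FPKM in control, nearly all of it Chil3, and 57.2 to 79.5 in miR-144 TAMs. Of the 5 tested, 1 was lower, Chil3, and 3 were higher, Plac8 (3.05 to 8.46 FPKM), Vcan (1.34 to 2.94) and F13a1. Ccr2 averaged 0.161 and 1.05 FPKM, and Ly6c2 reached at most 0.179. All 30 genes that every cell uses were above 1 FPKM in group mean. Cd4, a T cell gene that some macrophages also express, ranged over 1.12 to 1.55 FPKM in control and 5.51 to 8.81 in miR-144 TAMs. The summed level of 9 neutrophil markers was 78.9 to 95.9 FPKM in control and 50.3 to 56.4 in miR-144 TAMs, nearly all of it Csf3r and Mmp8, while Retnlg was at 0 and S100a8 reached at most 0.698. The summed level of 8 fibroblast or stellate cell markers ranged over 129 to 165 FPKM in control and 214 to 295 in miR-144 TAMs, with 4 of 6 tested markers higher. Col3a1 and Dcn did not pass, and Lrat was at 0 in all samples. Col1a1 accounted for 62.3 to 79.5 and 83.2 to 128 FPKM of these sums. Acta2 had the largest log2 difference of the 6 tested, 1.49 against 0.52 for Col1a1. It averaged 28.2 ± 5.14 FPKM in control and 80.1 ± 7.22 in miR-144 TAMs, without overlap. Pdgfrb averaged 2.71 and 6.35 FPKM, and Col1a2 36.6 and 51.7. The part of other cell types in the results was not tested. In bulk RNA, fewer cells of a type and less RNA per cell cannot be told apart.

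The samples split by group. Pearson correlations of log2(FPKM + 1) over the tested genes were 0.987 to 0.992 within control, 0.984 to 0.990 within miR-144 and 0.904 to 0.923 between the groups. The first principal component, with 79.8% of the variance, separated the 5 control from the 5 miR-144 samples, and the second held 4.25%. The spacing of low values put the depth at about 23.7 to 27.6 M (mega) fragments in control and 17.9 to 27.2 M in miR-144 TAMs. In both groups, samples 3 and 4 stood together. Both lay above or both below the other 3 samples for 3022 tested genes in control and 3588 in miR-144 TAMs. This held in both groups for 1216 genes, on the same side for 950 and on opposite sides for 266. The labels give no batch for these numbers, and the part of this split in the results was examined only by leaving the samples out. With samples 1, 2 and 5 alone, 6444 genes were called, 4435 higher and 2009 lower. These examples were chosen after their values were seen. Hpgd was 7.57 and 7.87 FPKM in control samples 3 and 4 and 13.1 to 14.4 in the other control samples, and Spp1 was 548 and 541 against 716 to 736. In miR-144 TAMs, Cd5l was 44.9 and 48.9 FPKM in samples 3 and 4 and 16.4 to 19.7 in the others, Gpr34 was 9.52 and 8.62 against 3.76 to 4.93, and F13a1 was 9.30 and 8.19 against 3.58 to 4.72. Mrc1 was at least 99.6 FPKM in miR-144 samples 3 and 4 and 53.9 to 67.5 in the others. In each of the last 4 genes all miR-144 samples still lay on the same side of every control sample, but the mean of the group depends on both.

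The difference between the groups touched most expressed genes, but the larger part of it was small. In limma, 7568 of 11350 genes (66.7%) passed an adjusted p of 0.05, with 5253 (46.3%) higher and 2315 (20.4%) lower in miR-144 TAMs. Of the tested genes, 10710 reached 1 FPKM in both group means, 448 in miR-144 TAMs only and 192 in control TAMs only, and the latter 2 kinds were tested only through the group where they were higher. The median gene was 0.12 higher on the log2 scale, and the split moved with the scale of the samples. After each sample was centred on its median, 3429 genes were higher and 3548 lower, so 49.1% of the calls were rises instead of 69.4%. Of the 7568 genes, 4985 differed by less than 0.5 on the log2 scale. A log2 difference of at least 1 was found for 892 genes (7.86%), 516 higher (4.55%) and 376 lower (3.31%). The 5 and 5 samples did not overlap for 6122 genes (53.9%), with 4261 higher (37.5%) and 1861 lower (16.4%).

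The extremes lay on the side of loss. At a log2 difference of at least 2 there were 81 higher and 90 lower genes. At 3 or more there were 7 higher and 41 lower, and at 4 or more 20 genes were lower and 0 higher by the same limma test. All these values are differences of log2(FPKM + 1), a scale that understates the change of genes with low levels.

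**Figure D1:**
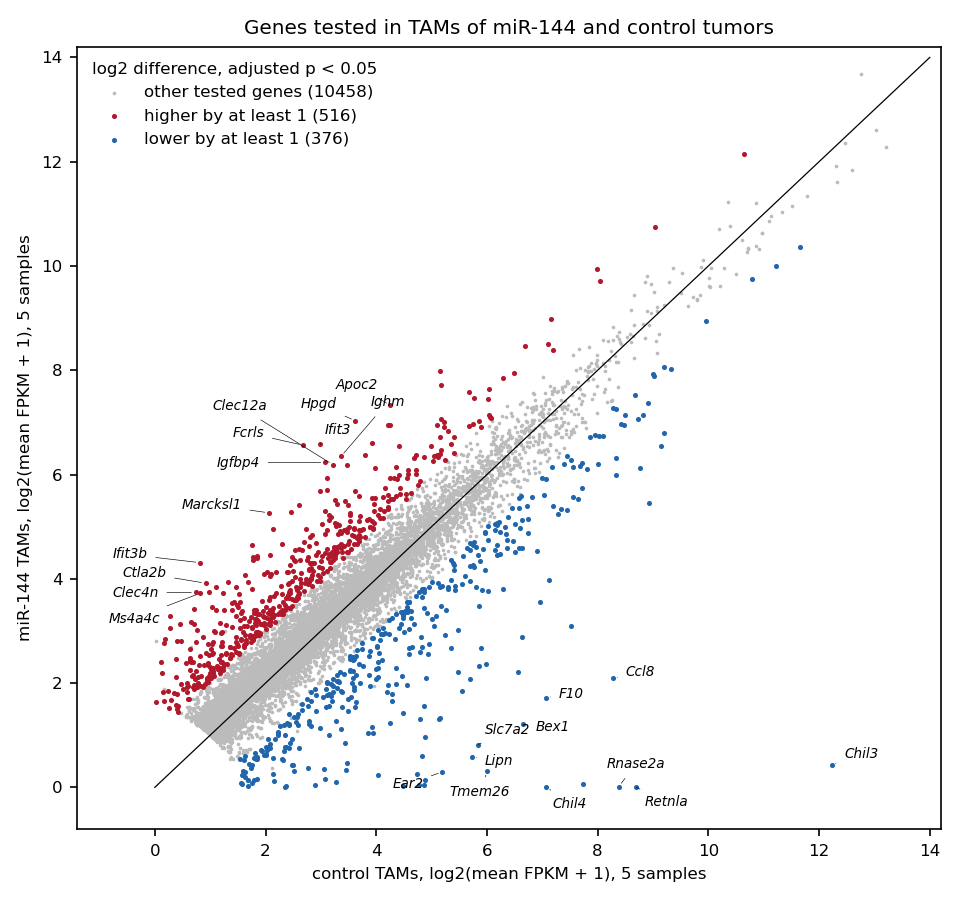
Mean level of each of the 11350 tested genes in control TAMs (x axis) and miR-144 TAMs (y axis), both as log2(mean FPKM + 1) of 5 samples. The 516 genes higher by at least 1 are red and the 376 genes lower by at least 1 are blue. The 12 largest rises and 11 of the 12 largest falls are named, and several of the falls end near 0 FPKM in miR-144 TAMs while no gene rises by 4 or more.

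The largest fall was that of Chil3, a secreted chitinase-like protein (Ym1) and a classic product of IL-4-treated macrophages. Its FPKM was 4388, 4246, 5779, 5523 and 4011 in control samples 1 to 5. In miR-144 samples 1 to 5 it was 0.335, 0.169, 0.375, 0.488 and 0.396. Every miR-144 sample was far below every control sample, and the log2 difference was -11.78 ± 0.108 (SE, adjusted p = 9.6e-14). In control TAMs this 1 gene held 1.32% to 1.92% of the summed FPKM of a sample. Its gene lies at chromosome 3, 106147554 to 106167564, minus strand (GRCm38, GENCODE M21). Its paralog Chil4 (Ym2) fell from 134 ± 21.6 to 0.00461 ± 0.00701 FPKM (mean ± SD of 5 samples, as for all such values), but 20.4% of the 50-base stretches of Chil4 and 29.4% of those of Chil3 occur in other genes, so their split is uncertain.

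Retnla, a resistin-like secreted protein (Fizz1), was 369, 364, 502, 493 and 345 FPKM in control samples. It was listed at 0 in all 5 miR-144 samples, and the adjusted p was 5.8e-13. Every control sample thus lay far above every miR-144 sample. Slc7a2, a membrane carrier that imports arginine, stood at 39.6, 73.9, 89.7, 44.2 and 34.9 FPKM in control samples. It was at 0.816, 0.8, 0.772, 0.658 and 0.792 FPKM in miR-144 samples. The control samples spread widely but all lay above the highest miR-144 sample, and the log2 difference was -4.93 ± 0.231 (SE, adjusted p = 1.3e-08). Retnla lies at chromosome 16, 48842551 to 48844461, plus strand, and Slc7a2 at chromosome 8, 40862396 to 40922308, plus strand.

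Other members of the 12 largest falls were of several kinds. Rnase2a, a secreted ribonuclease of the RNase A family, averaged 333 ± 31.3 FPKM in control TAMs and was at 0 in all but 1 miR-144 sample, which had 0.0474. Ear2, a relative of it, went from 35.6 ± 1.31 to 0.23 ± 0.103 FPKM, though 41.5% of its 50-base stretches occur in other genes and its reads may be shared. Ccl8, a chemokine that draws monocytes and T cells, was 282, 333, 310.0, 328 and 298 FPKM in control samples. It was 5.66, 3.45, 2.41, 2.14 and 2.66 in miR-144 samples, lower in each than in any control, with a log2 difference of -6.24 ± 0.175 (SE). F10, coagulation factor X, averaged 133 ± 15.7 and 2.3 ± 0.28 FPKM. Lipn, a lipase, averaged 52.3 ± 3.28 and 0.504 ± 0.0234. Tmem26, a membrane protein, and Bex1, a small protein best known from neurons, went from 63.3 to 0.241 and from 99.6 to 1.31 FPKM. Only genes without overlap between control and miR-144 samples could enter the 12 largest falls or the 12 largest rises. Of all tested genes, 53.9% met that condition.

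On the log2(FPKM + 1) scale the largest rise was that of Fcrls, a scavenger-type Fc receptor-like protein best known from microglia. Its FPKM was 5.77, 6.01, 4.39, 4.76 and 6.16 in control samples. It was 87.5, 91.5, 99.6, 109 and 80.3 in miR-144 samples. No sample overlapped, and the log2 difference was 3.88 ± 0.0992 (SE, adjusted p = 1.3e-10), a 17.3-fold higher mean. By the ratio of means, genes of lower level rose more, for example Fcrl1 with 34.2-fold and Ifit3b with 24.8-fold. Fcrls lies at chromosome 3, 87250758 to 87263738, minus strand. Ifit3 and Ifit3b, antiviral proteins induced by type I interferon, followed with log2 differences of 3.59 and 3.47. Ifit3 was 7.03, 8.35, 5.88, 4.43 and 9.05 FPKM in control samples. It was 107, 105, 77.8, 66.7 and 117 in miR-144 samples, and in both groups samples 3 and 4 were the lowest. Since 51.2% of the 50-base stretches of Ifit3 occur in other genes, mostly Ifit3b, the split of the pair is uncertain.

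Hpgd, the enzyme that inactivates prostaglandin E2, was 13.1, 14.4, 7.57, 7.87 and 13.6 FPKM in control samples. It was 147, 141, 113, 104 and 144 in miR-144 samples. The groups did not overlap, and the mean was 11.5-fold higher (log2 difference 3.44 ± 0.187 (SE), adjusted p = 4.2e-08). Marcksl1, an actin-binding protein of the MARCKS family, rose from 3.17 ± 0.285 to 37.5 ± 1.67 FPKM. Igfbp4, which binds insulin-like growth factors in the extracellular space, rose from 7.41 ± 1.02 to 74.2 ± 19.6 FPKM. Apoc2, the apolipoprotein that activates lipoprotein lipase, rose from 18 ± 2.84 to 159.8 ± 15.6, although 88.2% of its 50-base stretches also occur in another annotated gene. The receptors Clec12a, an inhibitory lectin, and Clec4n (dectin-2), a lectin that binds fungal mannans, rose from 8.29 to 72 and from 0.665 to 12.4 FPKM. Ms4a4c, a membrane protein of the MS4A family, rose from 0.758 to 12.2, and Ctla2b, a relative of the inhibitory part of cathepsins, from 0.891 to 14.1. For Ctla2b, 74.0% of its 50-base stretches also occur in other genes, so its reads may be shared.

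Ighm, the constant part of the immunoglobulin mu chain, was among the 12 largest rises and is a B cell gene. It ranged over 8.24 to 11 FPKM in control and 74.7 to 90.5 in miR-144 TAMs. The other B cell markers did not reach such levels. Cd79a, Ms4a1 and Pax5 stayed under 0.2 FPKM in each, and Cd79b ranged over 0.0878 to 0.328 and 1 to 1.39 FPKM. The summed level of the 7 B cell markers was 8.94 to 11.2 FPKM in control and 77.4 to 92.8 in miR-144 TAMs, nearly all of it Ighm.

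**Figure D2:**
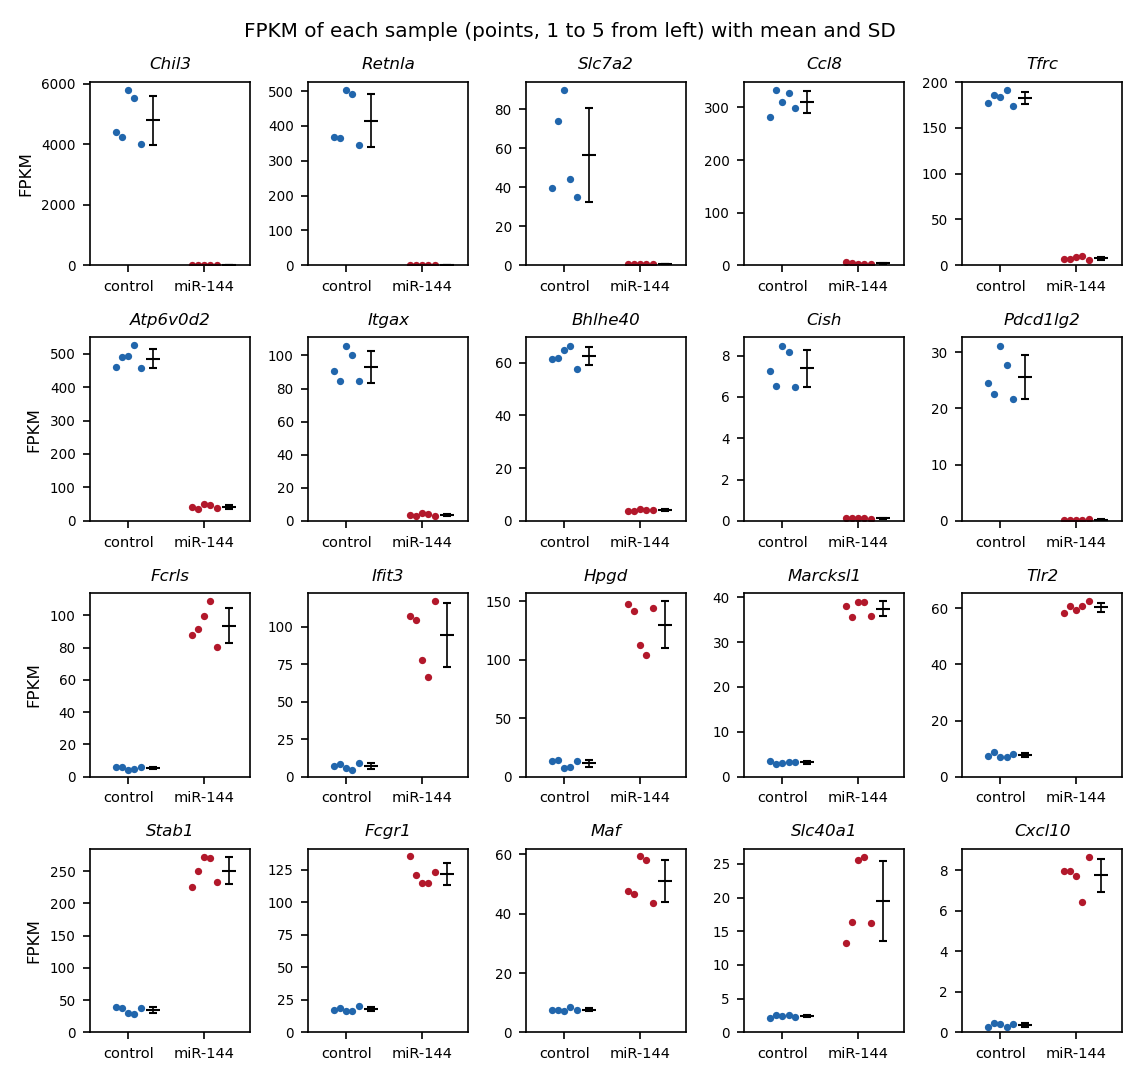
FPKM of 20 genes in each of the 5 control samples (blue) and 5 miR-144 samples (red), samples 1 to 5 from left to right, with the mean and SD beside them and axes that start at 0. The 20 genes were picked from those with large differences, so the groups are apart in all 20. Of all tested genes, 53.9% do not overlap. Retnla, for example, has 344.9 to 502.4 FPKM in control and 0 in all miR-144 samples.

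Some genes were nearly on in one group and off in the other. The rule asked for at least 5 FPKM in all 5 samples of 1 group and less than 0.5 in all 5 of the other. By it 17 genes were near absent in miR-144 TAMs and 2 in control TAMs. With at least 2 FPKM in place of 5 FPKM, the counts were 28 and 13. Beside Chil3, Chil4, Retnla, Rnase2a, Ear2 and Tmem26, genes near absent in miR-144 TAMs were Rbp4, Gm8221, Cldn11, Pdcd1lg2, Adipoq, Gm8113, Awat1, Cish, Mcf2l and Flt1. Pdcd1lg2 encodes PD-L2, a ligand of the T cell inhibitory receptor PD-1. Its values were 24.6, 22.5, 31.1, 27.8 and 21.6 FPKM in control samples. In miR-144 samples they were 0.172, 0.2, 0.243, 0.0826 and 0.281. Cish, a feedback inhibitor that cytokines induce through STAT proteins, was 7.26, 6.54, 8.46, 8.15 and 6.49 FPKM in control and 0.12, 0.162, 0.127, 0.121 and 0.07 in miR-144 samples. Flt1, the VEGF receptor 1, ranged over 6.02 to 6.79 and 0.0163 to 0.0511 FPKM. Rbp4, a retinol carrier, and Adipoq, the hormone adiponectin, are best known from liver and fat and averaged 28.7 and 21.4 FPKM in control TAMs. Cldn11, a tight junction protein, averaged 26.4, Awat1, an enzyme of wax ester synthesis, 8.68, and Mcf2l, a guanine nucleotide exchange factor, 7.31 FPKM. The gene model Gm8113 and the pseudogene Gm8221 share over 40% of their 50-base stretches with other genes and are uncertain. The 2 genes near absent in control TAMs by this rule were Cxcl10, the interferon-induced chemokine of CXCR3, and Fcrl1, an Fc receptor-like protein known from B cells. Cxcl10 was 0.262, 0.469, 0.435, 0.29 and 0.4 FPKM in control samples. It was 7.97, 7.98, 7.71, 6.41 and 8.64 in miR-144 samples, above every control. Exons of 56 of the 228 genes named by rule, among them Cxcl10, Cish, Maf, Slc7a2, Stab1, Cd274, Il4ra and Ctsl, overlap a gene on the opposite strand, and whether counting used strand is not given in the sources used here. Fcrl1 ranged over 0.18 to 0.274 and 6.33 to 8.36 FPKM.

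The members of 36 gene lists are described in groups, and the lists do not show where changes are concentrated. The list medians ran from -3.11 for alternative activation effectors to 1.27 for type I interferon-stimulated genes, against a median of 0.12 for all genes tested. Members given with both group means only were in part chosen after their values were seen. Many lists hold members that reached 1 FPKM in the mean of 1 group only. Such members were tested only through the group where they were higher. Where 0 members of a list were called in a direction, 0 reached an unadjusted p of 0.05 that way in limma either. The lists are described by counts and medians only, beside the shares of all genes, which were 46.3% higher and 20.4% lower.

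**Figure D3:**
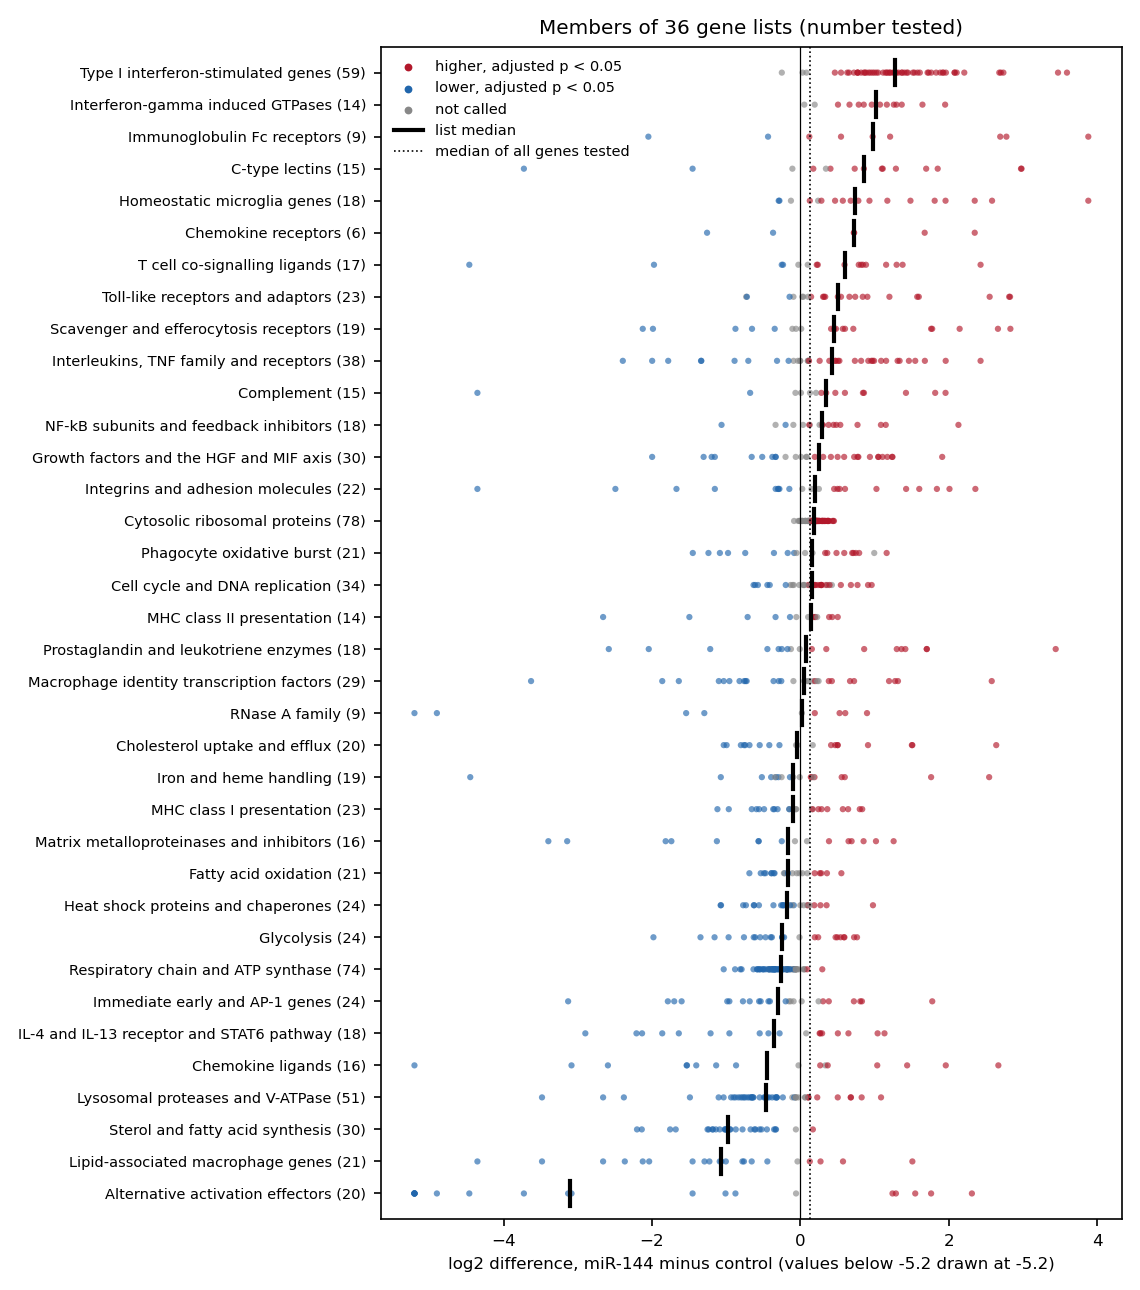
log2 difference (miR-144 minus control) of each tested member of 36 gene lists, with the number tested in parentheses; red members were higher and blue members lower at an adjusted p under 0.05. The lowest values are drawn at the left edge, as the axis label states. Black bars are list medians and the dotted line is the median of all genes, 0.12. Alternative activation effectors lie lowest at -3.11 and type I interferon-stimulated genes highest at 1.27.

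Alternative activation effectors, the products of IL-4-treated macrophages, were lower for 14 of 20 tested members and higher for 5, and 8 of the 20 reached 1 FPKM in control TAMs only and 3 in miR-144 TAMs only. Egr2, a transcription factor of this state, went from 28.2 ± 12 to 1.94 ± 0.26 FPKM, and Mgl2, a galactose-type lectin, from 45.7 ± 4.74 to 2.58 ± 0.731. Ccl24, an eotaxin, went from 9.98 ± 2.91 to 0.266 ± 0.145. Mrc1, the mannose receptor, and Clec7a, the beta-glucan receptor dectin-1, fell less, from 135 to 75.9 and from 343 to 125 FPKM. The state did not move as 1 block. F13a1, a clotting transglutaminase, rose from 0.325 ± 0.0247 to 5.95 ± 2.61 FPKM, and Cd163, the hemoglobin scavenger, from 0.958 ± 0.119 to 5.69 ± 1.02. Il10, an inhibitory cytokine, rose from 0.731 ± 0.132 to 4.07 ± 0.487, Vegfa, the vascular growth factor, from 6.12 to 15.9, and Clec10a, a lectin beside Mgl2, from 9.35 to 24.3.

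Of the 18 tested members of the IL-4 and IL-13 pathway 7 were higher and 10 lower, with a median of -0.35. Il4ra, the receptor chain IL-4Rα, was 12.1, 11.3, 12.3, 11.9 and 11.7 FPKM in control samples. It was 22.9, 24.4, 27.1, 30.3 and 23.4 in miR-144 samples, with no overlap and a log2 difference of 1.04 ± 0.0695 (SE, adjusted p = 2.2e-07). Il13ra1, the partner chain, rose from 4.13 to 10.3 FPKM, Jak3, a kinase of the receptor, from 4.33 to 7.39, and Stat6 from 54.8 to 66.3. Socs1, a feedback inhibitor, was 4.54, 4.56, 5.45, 4.79 and 4.39 FPKM in control samples. It was 0.347, 0.262, 0.195, 0.255 and 0.155 in miR-144 samples, below each control, with a log2 difference of -2.21 ± 0.061 (SE, adjusted p = 2.1e-10). Pparg, a lipid-sensing nuclear receptor, fell from 37.4 ± 3.36 to 9.55 ± 0.6 FPKM, Irf4 from 6.05 to 1.26, Batf3 from 7.81 to 1.01 and Ppargc1b, a coactivator of mitochondrial genes, from 4.35 to 1.31.

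Promoters of some genes that fell, and of some that rose, hold a match to TTC, any 4 bases and GAA. This is the spaced palindrome that STAT6 prefers. Stretches of 30 bases around it (match in capitals, either strand searched) are shown for Retnla and Pdcd1lg2, both near absent in miR-144 TAMs, from RefSeq (GRCm38.p6), both on the plus strand. They lie at chr16:48842454-48842483 and chr19:29410827-29410856 and the matches begin at -145 and -82 relative to the RefSeq gene start, which for Retnla is not the GENCODE start given above.
Retnla: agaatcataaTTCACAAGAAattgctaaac
Pdcd1lg2: catgctccagTTCCTCAGAAaccattctgg
The motif was found in 6.95% of all 32851 promoters of the table, which reach from 250 bases before to 50 after a gene start. A match is a description and no evidence of binding.

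Type I interferon-stimulated genes, which encode antiviral sensors and effectors, were higher for 56 of 59 tested members, and 40 of them by at least 1 on the log2 scale. None of the 59 was lower in the limma test. The 3 that did not pass were Trim25, Tor3a and Lgals3bp. Mx1, a GTPase that blocks influenza viruses, was 1.16, 1.54, 1.04, 0.849 and 1.13 FPKM in control samples. It was 13.5, 14.7, 12.2, 10.4 and 15.9 in miR-144 samples, with no overlap and a log2 difference of 2.74 ± 0.111 (SE, adjusted p = 4.0e-09). All 5 Ifit genes and all 7 Oas genes, which encode RNA-binding proteins and oligoadenylate synthetases, were higher, with medians of 2.68 and 1.40. Irf7, the factor that amplifies interferon production, rose from 7.85 to 36.3 FPKM, Isg15, a ubiquitin-like protein, from 19.7 to 59.1, and Rsad2 (viperin) from 4.57 to 20.3. Of the factors that carry the interferon signal, Stat2 rose from 15.2 to 27.8 and Irf9 from 7.43 to 12.9. The receptor chains Ifnar1 and Ifnar2 rose from 14.7 to 20.8 and from 23.2 to 39.3 FPKM. After median centring 55 members stayed higher and Trim25 was lower.

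**Figure D4:**
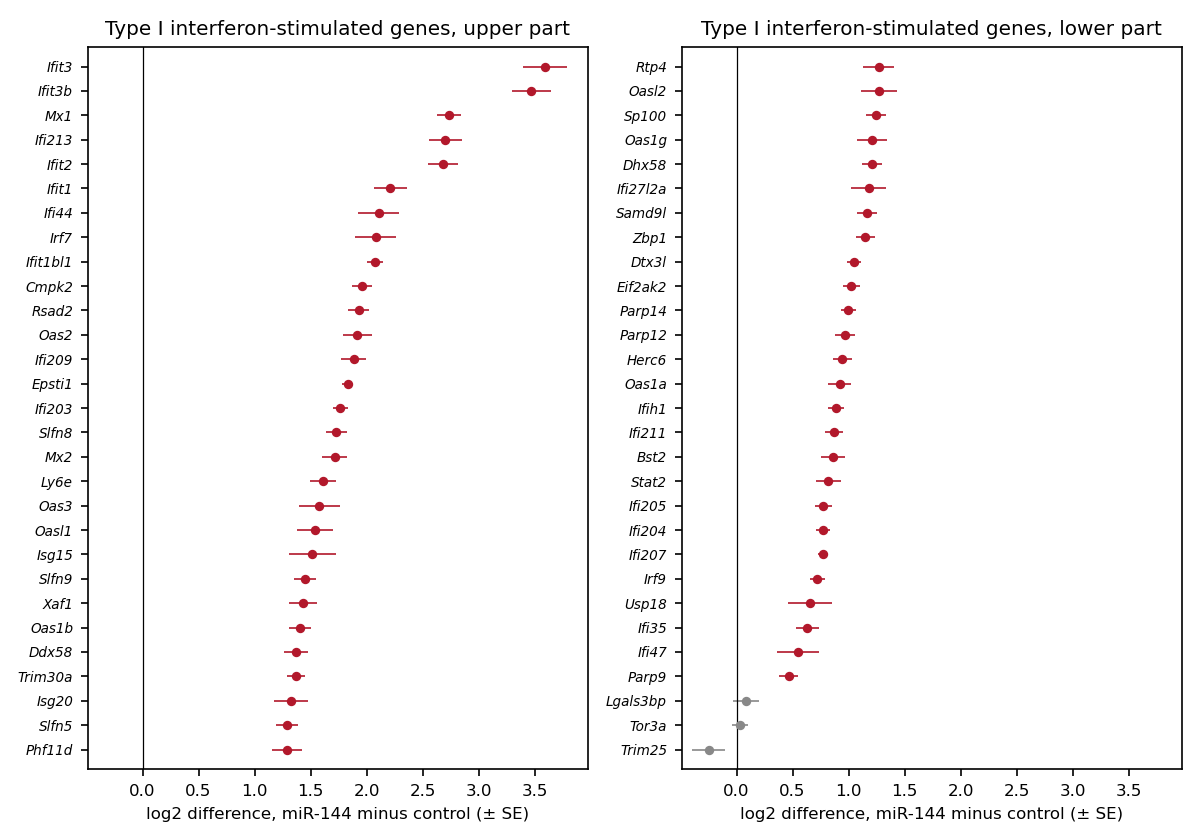
log2 difference (miR-144 minus control) with its SE for 58 of the 59 tested type I interferon-stimulated genes, sorted and split over 2 panels with 1 scale. The 55 members in red were higher at an adjusted p under 0.05, led by Ifit3 at 3.59, and the 3 in gray (Lgals3bp, Tor3a and Trim25) did not pass.

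Promoters of some of these genes carry the interferon-stimulated response element, a sequence bound by a complex that holds STAT2 and IRF9. Stretches of 30 bases around a match to GAAA, any 2 bases and again GAAA (either strand, match in capitals) are shown from RefSeq promoters (GRCm38.p6), 250 bases before to 50 after the gene start, for 4 of the interferon-induced genes with large rises. The Ifit3 stretch is chr19:34583397-34583426, the Ifit1 stretch chr19:34640794-34640823 and the Ifi213 stretch chr1:173599326-173599355. The Cxcl10 stretch is chr5:92349083-92349112. The sequences of Ifit3 and Ifit1 are read on the strand opposite to the gene, and all 4 on the minus strand of the genome.
Ifit3: gaggaaagtaGAAACTGAAAcagacttaaa
Ifit1: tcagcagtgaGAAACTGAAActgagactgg
Ifi213: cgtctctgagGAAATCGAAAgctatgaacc
Cxcl10: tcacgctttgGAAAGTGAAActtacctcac
These matches begin at -122, -85, -73 and -213 relative to the RefSeq gene start. The motif was found in 3.44% of the promoters of the table. A promoter was at hand for only 74.6% of the interferon-stimulated genes tested and 72.5% of all genes tested, under the 80% set as the least for such a count, so no share of promoters with the motif is given for any group of genes.

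GTPases induced by interferon gamma, which attack vacuoles of intracellular microbes, were higher for 12 of 14 tested members and lower for 0 by the same limma test, and 3 of the 14 reached 1 FPKM in miR-144 TAMs only. Gbp9 rose from 1.85 to 10.1 FPKM, though its exons overlap those of Gbp4 and Gbp8, and Iigp1 from 0.431 to 2.7. Gvin1 (34.6 and 36.2 FPKM) and Gbp2 (18.6 and 21.2 FPKM) did not pass the test. Nos2, the inducible nitric oxide synthase, was near absent in both groups, at 0.121 to 0.383 FPKM in control and 0 to 0.0329 in miR-144 TAMs, and its values were lower in all miR-144 samples (two-sided exact permutation test, p = 0.00794, the smallest that 5 against 5 samples can give). Il12b, a subunit of IL-12, was at 0 in all 10 samples.

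Toll-like receptors and their adaptors, which sense microbial products, were higher for 16 of 23 tested members and lower for 2, and after median centring for 15 and 4. Tlr2, the receptor of lipoproteins, was 7.49, 8.67, 7.08, 7.16 and 7.97 FPKM in control samples. It was 58.4, 60.7, 59.6, 60.7 and 62.7 in miR-144 samples. The groups lay far apart, with a 7.87-fold higher mean and a log2 difference of 2.83 ± 0.0494 (SE, adjusted p = 9.4e-12). Tlr9, which senses unmethylated DNA, rose from 5.09 ± 0.675 to 41.7 ± 1.82 FPKM, and Cd14, the coreceptor of lipopolysaccharide, from 34.8 ± 4.7 to 210.0 ± 37.1. Tlr7, which senses RNA, rose from 30.7 to 92, and Myd88, the adaptor most of them share, from 20.8 to 39.8. Ticam1 (TRIF), the adaptor of TLR3 and TLR4, fell from 20.7 to 12.2. Tlr4 itself averaged 14.8 and 7.57 FPKM and did not pass the test. Of 18 NF-kB subunits and inhibitors, 11 were higher and 2 lower (10 and 4 after median centring), and the strongest rises were those of the IκB-type inhibitors Nfkbiz (1.64 to 10.6 FPKM), Nfkbie (2.39 to 6.52) and Nfkbia (22.1 to 48.1). The 2 lower members were Nfkbib, another IκB-type inhibitor (12.9 to 11.1 FPKM), and Tnip3, an inhibitor that works with A20 (5.76 to 2.25).

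Cytokines and their receptors were higher for 22 of 38 tested members and lower for 9. Tnf, a central inflammatory cytokine, was 1.69, 1.76, 1.43, 1.09 and 2.15 FPKM in control samples. It was 7.5, 7.95, 6.13, 6.33 and 9.04 in miR-144 samples, without overlap, with a log2 difference of 1.68 ± 0.121 (SE, adjusted p = 4.2e-07). Il21r, the receptor of a T cell cytokine, rose from 1.04 ± 0.19 to 9.97 ± 0.588 FPKM. The receptor of IL-10 moved with its ligand, with Il10ra at 14.6 and 42 FPKM. Of the 9 members that fell, 8 were receptors and 1, Tnfsf12 (TWEAK, 66.1 to 40.2 FPKM), was a ligand. Il7r, the receptor of IL-7, fell from 89.6 ± 6.63 to 21.8 ± 2.74 FPKM, and Il6st (gp130), the signal chain of IL-6 family receptors, from 61.5 to 17. Tnfrsf26, of the TNF receptor family, fell from 29.7 to 4.92. Csf2rb, the signal chain of the GM-CSF, IL-3 and IL-5 receptors, which stood in another list, fell from 94.2 ± 11.3 to 23 ± 4.02.

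Of 10 tested CC chemokines 7 were lower and 2 higher, with the same counts after median centring. Of 5 tested CXC chemokines 4 were higher and 0 lower in the limma test, but after median centring only 2 were called higher, Cxcl10 and Cxcl16. The difference between the families was not tested. Ccl6, a monocyte attractant of mouse macrophages, was 546, 596, 579, 638 and 481 FPKM in control samples. It was 90.4, 85.1, 96.8, 104 and 89.8 in miR-144 samples, each below every control, with a log2 difference of -2.59 ± 0.0766 (SE). Ccl9 fell from 356 to 123 FPKM, Ccl12 from 11.5 to 3.47, Ccl7 from 56.3 to 20.8 and Ccl2, the main ligand of CCR2, from 41.1 to 18.3. The 2 CC chemokines that rose were Ccl3 and Ccl4, inflammatory proteins of macrophages, from 23 to 63.8 and from 7.91 to 33.8 FPKM. Cxcl16, which binds CXCR6 on T cells, rose from 36.8 to 76.7. Among receptors, Cxcr4 rose from 112 to 187 and Cxcr3 from 0.107 to 2.57, and Ccr1 fell from 7.54 to 2.7 FPKM. Cx3cr1, the fractalkine receptor, ranged over 0.0636 to 0.213 FPKM in control and 2.13 to 12.1 in miR-144 TAMs, a rise with a wide spread.

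Antigen presentation changed in both directions. Among MHC class II genes 5 of 14 tested members were higher and 5 lower, and after median centring 2 were higher and 6 lower, while 3 were lower without samples 3 and 4 of each group. H2-Ab1, a class II chain, rose from 83.2 ± 10.7 to 112 ± 11.7 FPKM, while Cd74, the invariant chain, fell from 842 ± 55.5 to 673 ± 106, with overlap between the groups and no call without samples 3 and 4 (log2 difference -0.23, against -0.33). The largest falls of the list were those of lysosomal enzymes that process antigen, Ctsl (437 to 68.4 FPKM), Ifi30 (211 to 74) and Ctss (5141 to 3146). Among 23 MHC class I genes 8 were higher, with the transporter Tap1 going from 7.29 to 13.4 FPKM and the activator Nlrc5 from 6.99 to 13.2. The 10 lower ones comprised the chaperone Calr (516 to 238), the immunoproteasome subunit Psmb10 (76.2 to 38.6) and B2m (2913 to 2263).

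Ligands that T cells read were higher for 11 of 17 tested members and lower for 4, and 4 of the 17 reached 1 FPKM in miR-144 TAMs only and 1 in control TAMs only. Without samples 3 and 4 of each group 2 were lower. Cd274, which encodes PD-L1, was 51, 53.3, 61.1, 59.9 and 49.8 FPKM in control samples. It was 11.7, 12.7, 14.3, 14.3 and 13.3 in miR-144 samples, so both ligands of PD-1 were lower, with a log2 difference of -1.97 ± 0.0716 for Cd274 and -4.46 ± 0.093 for Pdcd1lg2 (SE). Icosl, the ligand of the costimulator ICOS, was 0.658, 0.726, 0.515, 0.636 and 0.666 FPKM in control samples. It was 7.7, 7.71, 7.96, 7.64 and 8.14 in miR-144 samples, a tight group far above control, with an adjusted p of 7.8e-12. Havcr2 (TIM-3) rose from 2.1 to 6.59 FPKM and Tnfsf9 (4-1BBL) from 0.697 to 2.81. Cd80, partner of CD86 as a ligand of CD28, rose from 0.884 to 2.28.

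Receptors for uptake moved in both directions. Among immunoglobulin Fc receptors 7 of 9 were higher and 2 lower. Fcgr1, the activating high-affinity receptor, was 17.3, 19, 16.7, 16.6 and 20.4 FPKM in control samples. It was 135, 121, 115, 115 and 124 in miR-144 samples, a 6.77-fold higher mean. The 2 lower ones were Fcgr2b, an inhibitory receptor, and Fcgr3, an activating one, which fell from 401 to 300.0 FPKM. Fcgr2b was 149.7, 149, 166, 152 and 154 FPKM in control samples. It was 35.2, 31, 42.2, 43 and 32.6 in miR-144 samples, and in neither Fcgr1 nor Fcgr2b did the groups overlap (log2 differences 2.69 ± 0.0652 and -2.05 ± 0.0879 (SE)). Of 19 scavenger and efferocytosis receptors and bridging proteins 11 were higher and 5 lower, and after median centring 11 and 8. Stab1, a scavenger of matrix and lipoproteins, rose from 34.6 ± 5.08 to 251 ± 21.2 FPKM, Axl, a receptor for dying cells, from 20.2 ± 2.65 to 92.5 ± 7.19, and its ligand Gas6 from 102 to 351. Cd5l, a secreted protein of tissue macrophages, rose from 3.4 ± 0.17 to 29.8 ± 15.7. Cd36, a receptor of oxidized lipids, fell from 200.3 ± 11.9 to 45.4 ± 5.17, and Mfge8, which bridges dying cells to integrins, from 160.0 ± 20.4 to 39.4 ± 2.05. C-type lectins were higher for 11 of 15 and lower for 2, which were Mgl2 and Clec7a. Complement genes were higher for 9 of 15 and lower for 2. The 3 chains of C1q rose, C1qa from 253 to 986 FPKM, C1qb from 1313 to 2381 and C1qc from 461 to 829. C5ar1, the receptor of C5a, rose from 63.8 to 173, and C3 fell from 65.1 to 40.7.

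Transcription factors that shape macrophage identity were higher for 9 of 29 and lower for 13. Bhlhe40, a factor that represses Il10 in T cells and supports macrophage proliferation, was 61.5, 61.8, 64.9, 66.5 and 57.7 FPKM in control samples. It was 3.87, 3.78, 4.41, 4.29 and 4.32 in miR-144 samples. Maf (c-Maf), an activator of Il10, was 7.48, 7.66, 7.24, 8.49 and 7.45 FPKM in control samples. It was 47.7, 46.6, 59.3, 58.2 and 43.7 in miR-144 samples. The 2 factors moved in opposite directions with no overlap, with log2 differences of -3.63 ± 0.0494 and 2.58 ± 0.0852 (SE). Cebpb fell from 61.5 to 28.3 FPKM and the liver X receptor Nr1h3 from 18.4 to 8.45. Smad3, which carries TGF-beta signals, rose from 1.76 to 5.86, Cebpd from 1.93 to 6.13 and Irf8 from 16.5 to 27.1. Spi1 (PU.1), the factor all macrophages need, averaged 96.5 ± 5.46 and 103 ± 6.26 FPKM and did not pass the test. The list median was 0.05, and it was -0.08 after median centring. Genes of homeostatic microglia, the macrophages of the brain, were higher for 14 of 18 and lower for 2. Of the 18, the 4 genes Gpr34, Cx3cr1, P2ry12 and P2ry13 reached 1 FPKM in the mean of miR-144 TAMs only, so they were tested only through the group where they were higher. Gpr34, a lipid receptor, ranged over 0.0889 to 0.235 FPKM in control and 3.76 to 9.52 in miR-144 TAMs, P2ry12 over 0.552 to 0.763 and 3.2 to 4.36, and P2ry13 averaged 0.477 and 4.24. Sall1, the factor that defines microglia, was at 0 in all 10 samples, and Tmem119 (2.1 and 2.74 FPKM) did not pass the test.

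Lipid genes held some of the most even falls. Enzymes of sterol and fatty acid synthesis, most of them targets of the transcription factor SREBP, were lower for 28 of 30 members, 13 of them by at least 1, with a median of -0.97. Dhcr7, the enzyme of the last step to cholesterol, was 28.7, 26.6, 33.5, 31.6 and 29 FPKM in control samples. It was 5.88, 5.56, 5.56, 5.81 and 5.68 in miR-144 samples, with a log2 difference of -2.20 ± 0.0553 (SE, adjusted p = 1.2e-10). Scd1, which desaturates fatty acids, was 58.2, 56.4, 61.1, 60.2 and 58.5 FPKM in control samples. It was 14.1, 15.5, 11, 10.4 and 12.7 in miR-144 samples, and neither gene overlapped between the groups. Along the mevalonate pathway Hmgcs1 fell from 41.3 to 17 FPKM, Mvd from 50.6 to 14.5, Fdps from 34.9 to 10.2 and Sqle from 16 to 6.7. Fads1 (29 and 27.7 FPKM) did not pass. Elovl6, a chain elongase, was the 1 member called higher (1.37 to 1.67 FPKM), a call lost after median centring, after quantile normalization, without a minimum level, with the replicate block and without samples 3 and 4 of each group. The log2 difference was 0.17, and it was 0.035 after median centring and 0.012 after quantile normalization. The call was also lost when control sample 1, 2, 3 or 4 or miR-144 sample 1 or 2 was left out (0.13 to 0.18).

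Genes of lipid-associated macrophages, a state of cells that take up fat and debris, were lower for 16 of 21 and higher for 4, with a median of -1.06. Gpnmb, a membrane glycoprotein of this state, fell from 3218 ± 181 to 1314 ± 56 FPKM. Fabp4, a fatty acid carrier, fell from 119 to 22.3, Cd9 from 323 to 78.5, Lgals3 (galectin-3) from 2400.3 to 1027 and Plin2, a coat protein of lipid droplets, from 322 to 151. The 4 that rose were Apoe, Spp1, Lpl and Trem2. Apoe, a lipoprotein that carries cholesterol out of cells, was 1747, 1634, 1660.4, 1126 and 1847 FPKM in control samples. It was 5217, 4384, 4899, 3639.9 and 4540.0 in miR-144 samples, with no overlap. Spp1 (osteopontin) rose from 653 ± 99.5 to 989 ± 242 FPKM with overlap, and Lpl, lipoprotein lipase, from 92.6 ± 4.1 to 112 ± 6.56. Trem2, the lipid receptor that defines this state, averaged 101 ± 2.63 and 111 ± 6.59 FPKM, also with overlap, and after median centring neither its call nor its direction was kept. Genes of cholesterol uptake and efflux were mixed, 8 of 20 higher and 9 lower. The transporters Abca1 and Abca9 rose from 48 to 92.3 and from 2.44 to 20.5 FPKM, and Cyp27a1, which oxidizes cholesterol, from 22.9 to 66.8. Abcg1 fell from 100.5 to 59.7, and Soat1, which esterifies cholesterol for storage, from 73.8 to 42.

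Lysosomal proteases, hydrolases and V-ATPase subunits were lower for 35 of 51 and higher for 8, with a median of -0.46, and after median centring 40 were lower and 5 higher. Of the 14 subunits of the V-ATPase, the proton pump that acidifies lysosomes, 13 were lower and 0 higher in the limma test. Atp6v0d2, a subunit typical of osteoclasts and some macrophages, was 460.0, 489.6, 493, 524 and 456 FPKM in control samples. It was 40.4, 36.5, 49.7, 47.9 and 39.3 in miR-144 samples, each far below every control, with a log2 difference of -3.48 ± 0.0827 (SE, adjusted p = 8.9e-11). Of 10 cathepsins 7 were lower and 2 higher. Ctsl fell from 437 ± 28.4 to 68.4 ± 4.38 FPKM, and Ctsk, the collagenase of osteoclasts, from 56.6 ± 1.84 to 10.1 ± 1.32. Ctsc, which activates granule proteases, rose from 26.7 to 58.1. Tfeb, a factor that controls lysosome genes, fell from 13.5 to 8.35.

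**Figure D5:**
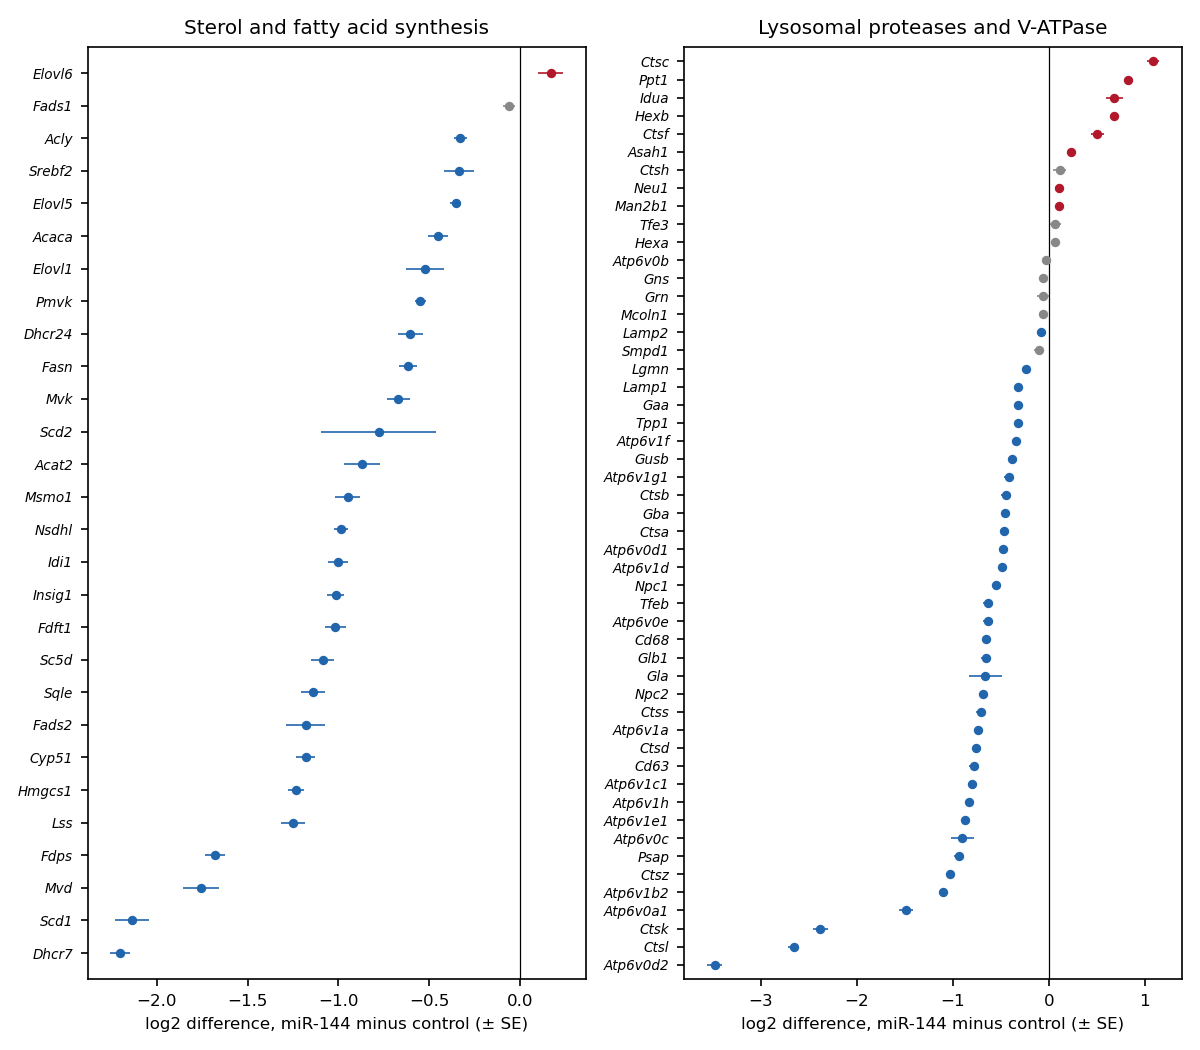
log2 difference (miR-144 minus control) with its SE for 28 of the 30 genes of sterol and fatty acid synthesis (left) and 51 lysosomal genes (right), on separate scales. Blue members were lower and red members higher at an adjusted p under 0.05. On the left 26 are blue, led by Dhcr7 at -2.20, and on the right Atp6v0d2 is lowest at -3.48.

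Each list of energy metabolism had more lower than higher members. Subunits of the respiratory chain and ATP synthase were lower for 51 of 74 and higher for 2, with a median of -0.26. Neither of the 2 higher, among them Ndufa6 (12.7 to 15.8 FPKM), was called higher after median centring, and the count was 1 without control sample 1 or 3 or miR-144 sample 4 or 5. All 4 subunits of complex II, 8 of 9 of complex III, 7 of 10 of complex IV, 12 of 14 of ATP synthase and 19 of 36 of complex I were lower. Ndufa1 had the largest fall, from 97.2 to 47.3 FPKM, and Cycs, cytochrome c, went from 17.6 to 9.12. Fatty acid oxidation genes were lower for 10 of 21 and higher for 5 (13 and 3 after median centring), led by Acadl (47.3 to 29 FPKM). Glycolytic genes were lower for 14 of 24 and higher for 9. Hk3, the hexokinase of myeloid cells, fell from 186 ± 7.61 to 46.5 ± 1.39 FPKM, Eno2 from 7.63 to 2.41 and Ldha from 177 to 105, while Pfkm and Pdk1 rose from 4.07 to 7.62 and from 3.89 to 7.09. Cytosolic ribosomal protein genes were higher for 51 of 78 and lower for 0 in the limma test, with a median of 0.19, and after median centring for 22 and 3, with a median of 0.05. Their median was 0.26 after rescaling to TPM and 0.28 after quantile normalization, beside 0.21 and 0.0059 for all genes, so the counts and medians moved with the scaling.

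Of 19 tested genes of iron and heme handling 7 were higher and 7 lower, and after median centring 4 were higher and 8 lower. Tfrc, the transferrin receptor that imports iron, was 178, 186, 184, 192 and 174 FPKM in control samples. It was 6.39, 6.61, 9.33, 9.48 and 5.91 in miR-144 samples, with a log2 difference of -4.45 ± 0.115 (SE, adjusted p = 1.4e-10). Slc40a1, ferroportin, which exports iron, was 2.17, 2.52, 2.41, 2.58 and 2.33 FPKM in control samples. It was 13.3, 16.4, 25.6, 26 and 16.2 in miR-144 samples, higher in each than in any control, with a log2 difference of 2.55 ± 0.165 (SE, adjusted p = 1.7e-07). Steap3, the reductase that serves transferrin iron, fell from 16.4 to 7.28 FPKM. Cd163, which takes up hemoglobin, rose, as above. The storage genes moved little, with Fth1 at 1560.1 ± 336 and 1454 ± 272 FPKM, which did not pass, and Ftl1 lower at 5078 and 3872, a direction that quantile normalization turned.

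Enzymes and receptors of prostaglandins and leukotrienes were higher for 9 of 18 and lower for 7. Ptgs1, the constitutive cyclooxygenase, fell from 22.6 ± 0.668 to 9.23 ± 1.41 FPKM, and the receptors Ptger2 of prostaglandin E2 and Ptgir of prostacyclin from 10.3 to 1.75 and from 9.85 to 0.812. Ptger4, another receptor of prostaglandin E2, rose from 1.78 to 6.41. On the leukotriene side Alox5ap, the helper of 5-lipoxygenase, rose from 53.4 ± 6.22 to 176 ± 11.2, and Alox5 itself from 0.228 to 2.21. Hpgds, a prostaglandin D2 synthase, rose from 17.9 to 60.5.

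Of 16 metalloproteinases, ADAM proteins and inhibitors 8 were lower and 6 higher. Mmp12, the macrophage elastase, was 128, 137, 137, 155 and 138 FPKM in control samples. It was 15, 13.4, 15.4, 14.9 and 15.5 in miR-144 samples, and Mmp19 fell from 124 ± 14.4 to 10.8 ± 0.623 FPKM. Mmp14, a membrane-bound collagenase, rose from 6.62 to 14.5 and Timp3, an inhibitor, from 3.28 to 9.16. Of 22 integrins and adhesion molecules 10 were higher and 9 lower, and 3 reached 1 FPKM in the mean of miR-144 TAMs only. Itgal was among these 3, which were tested only through the group where they were higher. Itgax, which encodes CD11c, was 90.4, 84.3, 106, 100.2 and 84.6 FPKM in control samples. It was 3.34, 2.94, 4.56, 4.15 and 3.16 in miR-144 samples, with a log2 difference of -4.35 ± 0.103 (SE). Itgb3 fell from 18.6 ± 0.966 to 2.48 ± 0.172 FPKM and Itgb2, the shared beta chain of leukocyte integrins, from 423 ± 24.1 to 132 ± 4.09. Itga6, a laminin receptor, rose from 3.95 ± 0.178 to 24.4 ± 1.23, Itga4 from 4.71 ± 0.251 to 19.6 ± 2.54 and Itgal (LFA-1) from 0.549 ± 0.0383 to 5.26 ± 0.534.

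HGF and MIF, signals that link tumor cells and macrophages, were of interest to the study. Of 30 growth factors and members of these pathways, 16 were higher and 9 lower. Hgf was 2.57, 2.76, 2.31, 2.42 and 2.63 FPKM in control TAMs. It was 3.19, 3.85, 3.85, 4.14 and 3.53 in miR-144 TAMs, a rise with no overlap and a log2 difference of 0.41 ± 0.0595 (SE, adjusted p = 1.1e-04). Its receptor Met was under 1 FPKM, at 0.565 to 0.882 in control and 0.359 to 0.506 in miR-144 TAMs, lower in all miR-144 samples (two-sided exact permutation test, p = 0.00794, the smallest possible). Mif averaged 73.7 ± 5.42 and 64.4 ± 9.09 FPKM and did not pass the test (adjusted p = 0.071) with a log2 difference of -0.20, though it was lower after median centring (-0.33), without control sample 4 (-0.24) and without miR-144 sample 1 (-0.27). Of the receptors of MIF, Cd44 was 51.2, 48.2, 51.3, 51.3 and 51.8 FPKM in control samples. It was 21.4, 21.8, 24.8, 22.4 and 21.2 in miR-144 samples, with a log2 difference of -1.15 ± 0.0433 (SE), while Cxcr4 rose and Cd74 fell by less, as above. Pdgfb and Pdgfa, chains of 1 growth factor family, moved apart, from 1.11 to 7 and from 16.8 to 6.79 FPKM. The receptors of TGF-beta rose, Tgfbr1 from 16.6 to 38.7 and Tgfbr2 from 16.4 to 35.1. Marco, a scavenger receptor, was under 0.5 FPKM in all samples (0 to 0.0321 in control and 0.103 to 0.413 in miR-144 TAMs) and higher in all miR-144 samples (two-sided exact permutation test, p = 0.00794, the smallest possible). Vcam1, an adhesion molecule, rose from 0.696 ± 0.105 to 1.45 ± 0.143. Ezh2, a histone methyltransferase, averaged 1.2 ± 0.101 and 1.36 ± 0.163 FPKM and did not pass.

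The remaining lists were mixed. Immediate early and AP-1 genes were lower for 13 of 24 and higher for 6, with Atf3, a stress-induced repressor, going from 222 ± 4.99 to 67.7 ± 4.03 FPKM and Ier3 from 81.2 to 23. Dusp6, a phosphatase that limits ERK, rose from 1.94 to 9.13. Heat shock proteins and chaperones were lower for 14 of 24 and higher for 5 (16 and 3 after median centring), with Hsp90b1 and Hspa5 of the endoplasmic reticulum going from 218 to 127 and from 213 to 128. Oxidative burst genes were higher for 9 of 21 and lower for 8. The catalytic subunit Cybb rose from 187 to 314 FPKM while its partner Cyba fell from 539 to 322, and Hvcn1, the proton channel that sustains the burst, fell from 89.7 ± 5.16 to 32.2 ± 1.07. Cell cycle genes were higher for 18 of 34 and lower for 6, none by 1 or more, and after median centring 10 were higher and 9 lower. Pcna and Mki67 fell from 61.8 to 39.6 and from 7.78 to 5.48, and Ccnd1 rose from 4.5 to 9.73 FPKM. Of 9 tested genes for RNases of the A and T2 families and their inhibitor, 4 were lower and 4 higher. The lower ones were Rnase2a, Ear2, Ang2, an angiogenin (2.22 to 0.11 FPKM) and Rnh1 (261 to 106). Of the 9 genes, 3 reached 1 FPKM in control TAMs only, Rnase2a, Ear2 and Ang2 among the lower ones, and 1 in miR-144 TAMs only. These were tested only through the group where they were higher.

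The most abundant RNAs differed in order between the groups. In control TAMs the highest means were those of Psap, a sphingolipid activator of lysosomes, at 9445 ± 398 FPKM, the small RNA model Gm22133, Lyz2 and Ctsd. In miR-144 TAMs Lyz2 led with 13171 ± 785 FPKM, and Psap followed Gm22133 and mt-Co1 with 4950.0 ± 308. Gm22133 overlaps Ftl1 on the same strand and all of its 50-base stretches occur there, so its 8309 and 6248 FPKM cannot be told apart from Ftl1. Chil3 and Gpnmb were among the 10 highest in control TAMs only, and Apoe and C1qb in miR-144 TAMs only.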

How the data were processed

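RNA of sorted TAMs was sequenced in 15 samples on a HiSeq instrument, and the 5 control and 5 miR-144 samples were used here. The authors deposited 1 table of FPKM values per gene and sample. Per the labels, the submitters' processing notes name FastQC 0.11.2, STAR and StringTie, with no role or order. The genome build, the annotation and the use of strand are not given in the sources used here. Of the identifiers, 99.7% were found in GENCODE M21 (GRCm38), from which locations were taken. Counts could not be recovered from FPKM, so no count model was used, and depth was estimated from the spacing of low values. Of these values 36.3% to 49.0% in a control sample and 40.7% to 48.5% in a miR-144 sample lay on a whole step (tolerance 0.05), where chance gives 10%, so the estimate is rough.

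The test was limma 3.58.1 (R 4.3.3) on log2(FPKM + 1) with a trend in the variance, and p-values were adjusted by Benjamini-Hochberg across all 11350 tested genes (mean of 1 FPKM or more). Calls have an adjusted p under 0.05. Genes below 1 FPKM were given a two-sided exact permutation test over samples (252 splits). The scripts were tested on simulated data with the spread of these samples. Called were 46 of 50 genes raised by 1 on the log2 scale and 44 of 50 raised by 0.5. Also called were 23 of 50 raised by 0.25 and 49 of 50 lowered by 1, with 9 calls among 11150 unchanged genes. The simulated noise was normal and independent between genes and samples, and few genes were changed. Samples that deviate together, such as 3 and 4, were not simulated, so the 9 calls give no rate of false calls for these data. Named genes were the 12 largest rises and falls without overlap, the 3 largest called changes of each direction in each of 36 lists, genes of the study fixed by name, the genes near absent in 1 group and the 10 most abundant genes of each group. Further list members and all genes of the closing observations were chosen after their values were seen. A few genes that the rule names are not reported here. The members and lists were chosen with earlier results of these data known. Sequence shared between genes was counted as the share of 50-base stretches of a gene's transcripts that occur in another gene's transcripts. The samples of the groups bear the numbers 1 to 5. Same-numbered samples did not deviate together (correlations from -0.133 to 0.105), so the numbers were not taken as pairs. Alternatives were another pseudocount, other minimums, 3 other scalings, a replicate block, no trend, a fit of all 3 groups and leaving out each sample. Leaving out samples 3 and 4 of both groups was added after the data were seen.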

Additional observations from a re-analysis of the deposited data

Results flagged for a closer look

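Single samples stood apart from the other 4 of their group for 13 of the 410 groups of named genes that were examined by Dixon's test, and chance alone gives about 1 in 20, which is 20.5 here. In the miR-144 group, Igfbp4 was lowest in sample 1 at 39.3 FPKM, with the next sample at 80.9. Rnase6 was highest in sample 5 at 5.05 (next 2.42), Srxn1 lowest in sample 3 at 4.36 (next 11.7), Mmp12 lowest in sample 2 at 13.4 (next 14.9) and Bex1 highest in sample 3 at 1.79 (next 1.28). In the control group, Egr2 was lowest in sample 5 at 6.93 FPKM, with the next sample at 31.1. Sample 5 was also lowest for Adipoq at 17.7 (next 21.6) and Lipn at 46.6 (next 52.7). Sample 4 was lowest for Cyp27a1 at 21.9 (next 22.96) and highest for Cd36 at 221 (next 199). Sample 3 was highest for Fcgr2b at 166 (next 154) and lowest for Ctsk at 53.4 (next 56.7), and Cd44 was lowest in sample 2 at 48.2 (next 51.2). In none of these 13 genes did the standing sample reach the range of the other group.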

How the results depend on the processing

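Depth was only estimated, so no floor in FPKM is given for genes listed at 0. Values of named genes kept direction and side of the threshold in 4371 of 4399 alternatives, were weaker in 21, stronger in 3 and turned direction in 4. The turns were Ezh2 (-0.0326 with median centring, -0.0568 with quantile normalization), mt-Co1 (0.25) and Ftl1 (0.15, both with quantile normalization). Of the counts over genes, a minimum of 5 FPKM, which tests fewer genes, gave 4693 called, 2987 higher and 3873 without overlap. Median centring gave 3429 higher and 3548 lower, and rescaling to TPM gave 775 higher by at least 1. Near absent genes numbered 7 at 10 and 0.1 FPKM and 41 (28 lower and 13 higher) at 2 and 0.5 FPKM, limits whose own construction changes the count. With a pseudocount of 0.1, 1224 genes differed by at least 1. Without 1 sample, 7271 to 7406 genes were called, 5012 to 5112 higher and 2200 to 2313 lower, and 877 to 926 differed by at least 1. With samples 1, 2 and 5 of each group alone, an alternative chosen after seeing the data, 859 differed by at least 1. The replicate block, for numbers that showed no pairing (0 samples correlated best with their own number), gave 7350 called genes. Counts within lists stayed within 1.5 times in 1389 of 1440 cases, and of the 51 others 16 came with the minimum of 5 FPKM and 14 with median centring; the cause was not tested.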

Other observations

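Several genes outside the named ones are given here, all chosen after their values were seen. Acp5, the tartrate-resistant phosphatase, averaged 58.8 ± 6.93 FPKM in control and 5.39 ± 0.672 in miR-144 TAMs. Ocstamp, a membrane protein needed for cell fusion, averaged 4.16 ± 0.441 and 0.0249 ± 0.0286 FPKM, and Tm4sf19, a tetraspanin-like protein, 57.3 ± 4.9 and 4.01 ± 0.514. F7, coagulation factor VII, averaged 28.3 ± 2.61 and 0.957 ± 0.0904 FPKM and Vwf, von Willebrand factor, 43.5 ± 1.86 and 7.1 ± 0.783. Anxa1, a protein that limits neutrophil entry, averaged 588 ± 20.6 and 110.0 ± 5.04 FPKM.

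On the higher side, Nlrp3, the sensor of an inflammasome, averaged 0.965 ± 0.162 FPKM in control and 12.5 ± 0.62 in miR-144 TAMs. Siglec1 (CD169), a sialic acid receptor of tissue macrophages, averaged 34.8 ± 5.21 and 133 ± 22.5 FPKM, and Tgfbi, a matrix protein induced by TGF-beta, 17.6 ± 2.32 and 123 ± 8.61. All 9 of these genes passed the limma test at an adjusted p under 0.05. Among genes grouped by the start of their symbol, 28 of 34 tested Trim genes were higher and 2 lower, while 6 of 7 tested Tubb genes, which encode beta tubulins, were lower and 1 higher, beside 46.3% higher and 20.4% lower of all genes tested.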
